A study of Homo sapiens with 12 samples.

Results

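The genes described here are the human zinc finger genes named ZNF plus a number that carried ribosome footprints in 22Rv1 xenograft tumours. A gene was a member when its transcript had a mean of 10 or more footprint counts over the 3 vehicle footprint libraries. There were 283 members among 504 ZNF genes and 19038 transcripts in the count tables, and 221 ZNF genes lay under the minimum. The rule used the vehicle footprint level, so that level is a description here, and the footprint and TE comparisons share those 3 vehicle libraries with the rule. The RNA libraries were no part of it. Membership rests on gene names, since no protein sequence was used here to check each gene for its fingers.

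22Rv1 is an established human prostate cancer cell line. It was grown under the skin of male NSG mice, a strain with severe immune deficiency, into which it was injected at 6 to 8 weeks of age, and the tumours so hold mouse stroma and blood. Mice received zotatifin at 0.3 mg/kg or its vehicle, 5% dextrose, into the peritoneum once tumours reached 70 to 100 mm3, and tumours were taken 6 h later. The 4 groups of 3 libraries were vehicle RNA, vehicle footprints, zotatifin RNA and zotatifin footprints, and all come from the same cell line without a genetic change. Libraries titled with the same number within a treatment came from 1 tumour, as far as their values show, so that there were 3 vehicle and 3 zotatifin tumours. Zotatifin blocks eIF4A, the helicase that opens mRNA leaders ahead of the scanning ribosome, and it clamps the enzyme onto purine-rich RNA.

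Most ZNF genes encode DNA-binding proteins built from repeated C2H2 fingers, in which a zinc ion holds each finger in shape. The largest class in humans carries a KRAB domain, which recruits the corepressor TRIM28 and the histone methyltransferase SETDB1 to silence transposable elements, and many genes of this class stand in tandem clusters on chromosome 19. A smaller set has other roles: binding promoters, scaffolding chromatin complexes, binding RNA, or building the ribosome. In the data 147 of the 283 members (51.9%) lay on chromosome 19, 23 on chromosome 7 and 12 each on chromosomes 1 and 16.

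RefSeq (GRCh38.p14) gave a promoter window of 250 bases before to 50 after an annotated start for 242 of the 283 members. The first 30 bases after that start are shown for the genes that the comparisons below turn on, since the leader is the part of an mRNA on which eIF4A works. The starts shown for ZNF146 and ZNF768 lie inside the gene spans given with their values, and which start was used in these tumours was not tested. Capitals mark runs of 6 or more purines.
ZNF503 (chr10:75401887-75401916, minus strand): actgagagtcctggcagcggcggcggcggc
ZNF281 (chr1:200410007-200410036, minus strand): agtacacGGGAGGcttttaattccattgtg
ZNF593 (chr1:26169908-26169937, plus strand): gatcggcccggaagtgctcacacgtgtgct
ZNF592 (chr15:84748592-84748621, plus strand): gtggctcccgcagccggcgctggggacgcg
ZNF768 (chr16:30526537-30526566, minus strand): agacgtccggcctcgggggcccgggctggg
ZNF146 (chr19:36215106-36215135, plus strand): gagtgcgcaagcgcagcgcaccgagtggac
ZNF141 (chr4:337814-337843, plus strand): gtctttgcgtctggctactaccagaccgcg
Among these 7 leaders, ZNF281 was the 1 with such a run in the stretch shown. A run of that length stood in the first 50 bases of 31.8% of the 242 members, against 42.4% of the 7682 genes tested in footprints that have a window and 46.7% of all 27305 windows. GAGA on the sense strand stood in 14.5% of member leaders and in 20.8% of those of tested genes, and AGAGAG, which contains it, in 0.826% and 2.19%. GGCGGC on the sense strand stood in 8.68% and 17.7%. The median purine share of the first 50 bases was 48% in members and 52% in tested genes. Across the 242 members, the purine share had a Pearson correlation of 0.08 with the footprint change and -0.03 with the TE change, and genes of a cluster share ancestry, so these are descriptions without a test.

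A group of members has a near-common leader. The letters GAGCTCCAGG were read from the ZNF493 leader after the leaders were seen, and searched on the sense strand of the first 50 bases. They stood in 8 members (3.31%) against 10 of the 7682 tested genes (0.130%) and 16 of all windows (0.0586%). Here and in the other motif counts, tested genes and all windows include members, so the 8 are among the 16. They are shown because 7 of the 8 genes lie in 1 cluster of chromosome 19, and capitals mark these letters. Each stretch starts at the annotated start, except that of ZNF100, which begins at base 4.
ZNF93 (chr19:19900946-19900975, plus strand): gtctctcggtgcagccgGAGCTCCAGGtct
ZNF626 (chr19:20661542-20661571, minus strand): gtctctcgctgcagtcaGAGCTCCAGGtct
ZNF430 (chr19:21020657-21020686, plus strand): gtccctcgctgtggcctGAGCTCCAGGtct
ZNF431 (chr19:21142040-21142069, plus strand): gtctctcgccgcagcctGAGCTCCAGGtct
ZNF493 (chr19:21397133-21397162, plus strand): attgtttctctctgctgccgGAGCTCCAGG
ZNF100 (chr19:21767547-21767576, minus strand): tttgtctctcgctgtagccgGAGCTCCAGG
ZNF726 (chr19:23914886-23914915, plus strand): gtctctatctgcggccgGAGCTCCAGGtct
ZNF680 (chr7:64563042-64563071, minus strand): gtctctagctgctgcggGAGCTCCAGGtct
ZNF93 is a KRAB protein known to bind LINE-1 elements. The RNA change of 7 of these 8 genes was below 0, with a median of -0.14 on the log2 scale, and their footprint change had a median of -0.08. The stretch of chromosome 19 that holds 7 of the 8 has 35 members (below). Its median RNA change was also -0.14, with 9 of 35 above 0, so lower RNA was not particular to the genes with these letters.

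Around the starts, ACTACA followed after any 2 bases by TCCC, letters known from sites bound by ZNF143, stood on either strand in 26 of the 242 member windows (10.7%), in 4.35% of those of tested genes and in 1.96% of all windows. A stretch before the window start of ZNF146 and of ZNF444 is shown because RNA of both genes rose (below), and capitals mark the motif. The windows of ZNF322, ZNF48 and ZNF768, the other members whose RNA rose, did not hold it. Both stretches lie inside the annotated gene spans, which begin further upstream than the windows' starts. Both are written on the strand of the motif, which is opposite to the gene.
ZNF146 (chr19:36214953-36215004, minus strand): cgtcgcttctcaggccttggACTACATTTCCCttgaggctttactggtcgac
ZNF444 (chr19:56141143-56141194, minus strand): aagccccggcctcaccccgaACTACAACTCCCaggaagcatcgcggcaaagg
The 26 genes that hold the motif had a median RNA change of 0.08, against -0.00 in the 216 others with a window. CCGGAAG, searched on both strands, stood in 45.5% of member windows and in 22.5% of those of tested genes. TGACGTCA stood in 4.55% and 3.44%, and GGGCGGGG in 37.2% and 39.0%, also on both strands. A match is a run of letters and no evidence that a factor was bound in these tumours.

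RNA libraries held 5761921 to 8153674 counts and footprint libraries 838135 to 2013968. A member had a median of 24.7 footprints per vehicle library, from 10.0 at the minimum to 369 for ZNF207, and 56 members had 50 or more. In RNA the median was 165 counts, so that the RNA values rest on more counts than the footprint values. Levels are CPM (counts scaled to a common library size) after TMM correction, each change is the log2 ratio of zotatifin over vehicle ± its standard error, and the test is the edgeR quasi-likelihood test with Benjamini-Hochberg adjusted p over all genes tested, called a change below 0.05. The zotatifin RNA library of tumour 2 stood apart: its counts differed from those of tumours 1 and 3 by a chi-square per degree of freedom of 15.8 and 21.5, against 6.75 between those 2. Markers of 22Rv1 and prostate epithelium were high in every footprint library (10 of 10 in the table, summed 4069 to 5364 CPM with vehicle and 5362 to 6187 with zotatifin), with 3 that rose. Fibroblast markers summed to 694 to 1175 CPM with vehicle and to 252 to 463 with zotatifin, and 5 of the 7 tested fell. Myeloid markers summed to 74.4 to 343 and 34.9 to 63.8, with 2 of 4 tested that fell and CD14 at 0 in all footprint libraries. Red blood cell markers summed to 136 to 362 and 142 to 179, with 2 of 6 tested that fell, and endothelial markers to 2.78 to 4.45 and 0 to 3.68. The part of these other cells in the ZNF values was not tested, whether mouse reads were removed is not given in the sources used here, and in whole tumours fewer cells of a type and less RNA per cell cannot be told apart.

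Footprints on the ZNF genes made up a larger share of the library after zotatifin. The 283 members took 0.585%, 0.563% and 0.554% of all footprints in the 3 vehicle tumours and 0.619%, 0.601% and 0.672% in the 3 zotatifin tumours. The 3 zotatifin values all lay above the 3 vehicle values, by a small margin. In RNA the same genes took 1.07%, 0.989% and 1.02% with vehicle and 1.06%, 0.930% and 1.13% with zotatifin, and the treatments overlapped. Since the members were chosen on the vehicle footprints, these shares are a description.

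**Figure D1:**
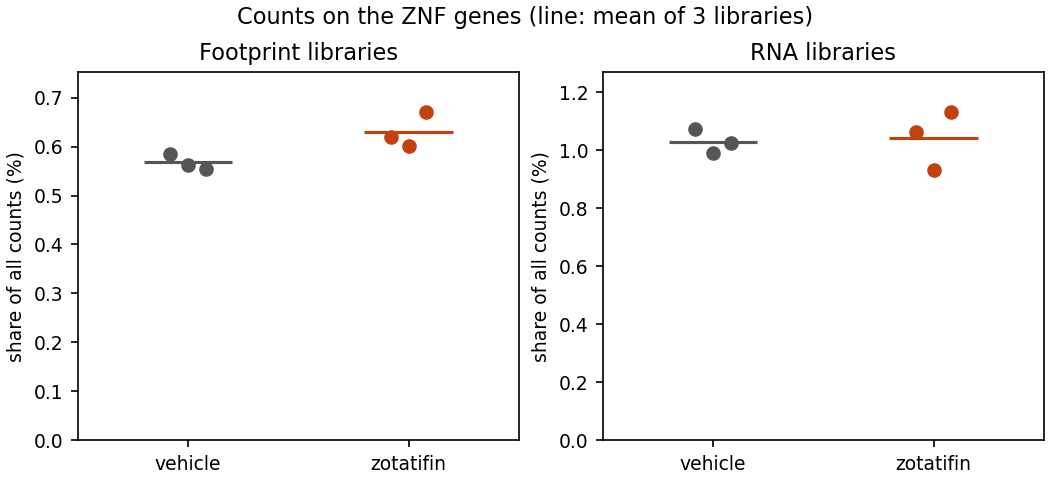
Share of all counts (%, y axis from 0) that fell on the 283 ZNF genes in each library, footprints on the left and RNA on the right; points are libraries and the line is the mean of 3. The zotatifin footprint shares (0.601% to 0.672%) lie above the vehicle shares (0.554% to 0.585%), while the RNA shares overlap.

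Gene by gene, the shift was small and spread over many members. The median footprint change over all 283 members, without a filter on low counts, was 0.16 on the log2 scale, and 196 of them (69.3%) lay above 0. The same values over all transcripts with at least 10 vehicle footprints were -0.02 and 47.6%. The median RNA change of the members was 0.00, with 142 of 283 above 0, against 0.04 over those transcripts. The median change of translational efficiency (TE, the footprint level of a gene set against its RNA level) was 0.15, against -0.05. Those transcripts were not matched to the members in depth. Of genes tested in TE, 210 of 265 members and 3860 of all 9454 had 10 to 50 vehicle footprints, and no change matched for depth was computed. ZNF genes were also chosen by a mean of 10 raw counts over all 6 footprint libraries. These 265 genes had a median footprint change of 0.16. This rule still leans on the vehicle level, since vehicle libraries held 1592316 to 2013968 footprints and zotatifin libraries 838135 to 1540867. With a vehicle mean of 20 or more, the median footprint change was 0.10 over 171 genes. The 221 ZNF genes under the minimum had a median RNA change of 0.11, and 204 of them could be given a footprint change, with a median of 0.28. Only 6 of the 221 passed the footprint filter. Low vehicle footprints chose these genes, which by itself favours a higher change, so nothing is read from that footprint median.

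The filter on low counts left 269 members for the footprint test, and 5 of them rose while none fell. Over all 9544 genes tested 7.14% were called (3.22% rose and 3.92% fell), and since the rule used this contrast, nothing is read from the member count. At an unadjusted p below 0.05, edgeR had 28 members higher and 2 lower (10.3% and 11.8% of all genes tested were). DESeq2 called 2 members, ZNF503 and ZNF281, both of which rose, but gave no adjusted p for 240 of the 283. In 39 members the 3 zotatifin footprint values all lay above the 3 vehicle values, and in 9 they all lay below, where 12.9% and 13.5% of all tested genes did so.

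ZNF503 had the largest called rise. It encodes a transcriptional repressor known from the developing striatum, and it lies at chr10:75279725-75401916. Its footprints stood at 112, 120 and 95.3 CPM in the vehicle tumours and at 220, 254 and 201 CPM in the zotatifin tumours. Each zotatifin tumour lay far above each vehicle tumour, and the change was 1.02 ± 0.12 (adjusted p = 6.06e-06, n = 3 per group, edgeR). The call held without any 1 library (adjusted p up to 0.000609). Its RNA stood at 107, 134 and 80.1 CPM with vehicle and 160, 162 and 135 CPM with zotatifin. RNA was thus higher in each zotatifin tumour than in any vehicle tumour, though its change of 0.51 ± 0.15 missed the threshold (adjusted p = 0.0787, edgeR).

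ZNF281, a factor that binds GC-rich promoters and is known from stem cells and from epithelial-mesenchymal transition, had footprints up while its RNA was lower. It lies at chr1:200404951-200410036. Footprints stood at 56.0, 59.9 and 57.8 CPM with vehicle and at 79.0, 85.8 and 105 CPM with zotatifin, a rise of 0.65 ± 0.15 (adjusted p = 0.00595, edgeR). RNA stood at 56.7, 60.9 and 58.0 CPM with vehicle and at 47.6, 44.2 and 47.5 CPM with zotatifin. The treatments did not overlap in either assay, with opposite directions, and the RNA change of -0.33 ± 0.13 did not pass (adjusted p = 0.17, edgeR). The footprint call was lost without vehicle tumour 1 or zotatifin tumour 3, with an adjusted p of at most 0.0672.

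The other 3 rises were smaller or less stable. ZNF593, whose product joins the large ribosomal subunit during its assembly, had footprints of 22.1, 27.8 and 28.0 CPM with vehicle and 42.5, 52.7 and 36.2 CPM with zotatifin. All zotatifin values were higher, with a change of 0.72 ± 0.19 (adjusted p = 0.0197, edgeR), and the call was lost without vehicle tumour 1, zotatifin tumour 1 or zotatifin tumour 2 (up to 0.134). DESeq2 did not call ZNF593 (adjusted p = 0.0684). Its RNA overlapped between treatments, at 64.5 to 72.2 CPM with vehicle and 58.6 to 72.1 CPM with zotatifin. ZNF592, which works with ZNF687 in a chromatin complex, had 42.8, 50.5 and 48.9 CPM with vehicle and 64.2, 61.3 and 71.8 CPM with zotatifin. The groups did not overlap, the change was 0.49 ± 0.15 (adjusted p = 0.0482, edgeR), and leaving out any 1 library lost the call (0.0513 to 0.224). The call of ZNF592 was also lost with DESeq2 (adjusted p = 0.159), and in edgeR without a filter (0.051) or with a replicate block (0.0578). ZNF768 at chr16:30524004-30532477 had 12.8, 15.5 and 9.53 CPM with vehicle and 22.6, 20.8 and 23.9 CPM with zotatifin. Its rise of 0.83 ± 0.26 (adjusted p = 0.0483, edgeR) was lost without any 1 library except vehicle 2 (0.0319 to 0.166), and its RNA rose as well (below).

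Among members with lower footprints, the smallest p-values belonged to ZNF146, ZNF664 and ZNF682, none of which passed. ZNF146 had 27.5, 26.1 and 18.4 CPM with vehicle and 13.0, 14.7 and 18.1 CPM with zotatifin (-0.64 ± 0.25, adjusted p = 0.124, edgeR). ZNF664 changed by -0.48 ± 0.23 and ZNF682 by -0.71 ± 0.35, with adjusted p of 0.215 and 0.232 (edgeR). Each of the 3 had all zotatifin values below all vehicle values.

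**Figure D2:**
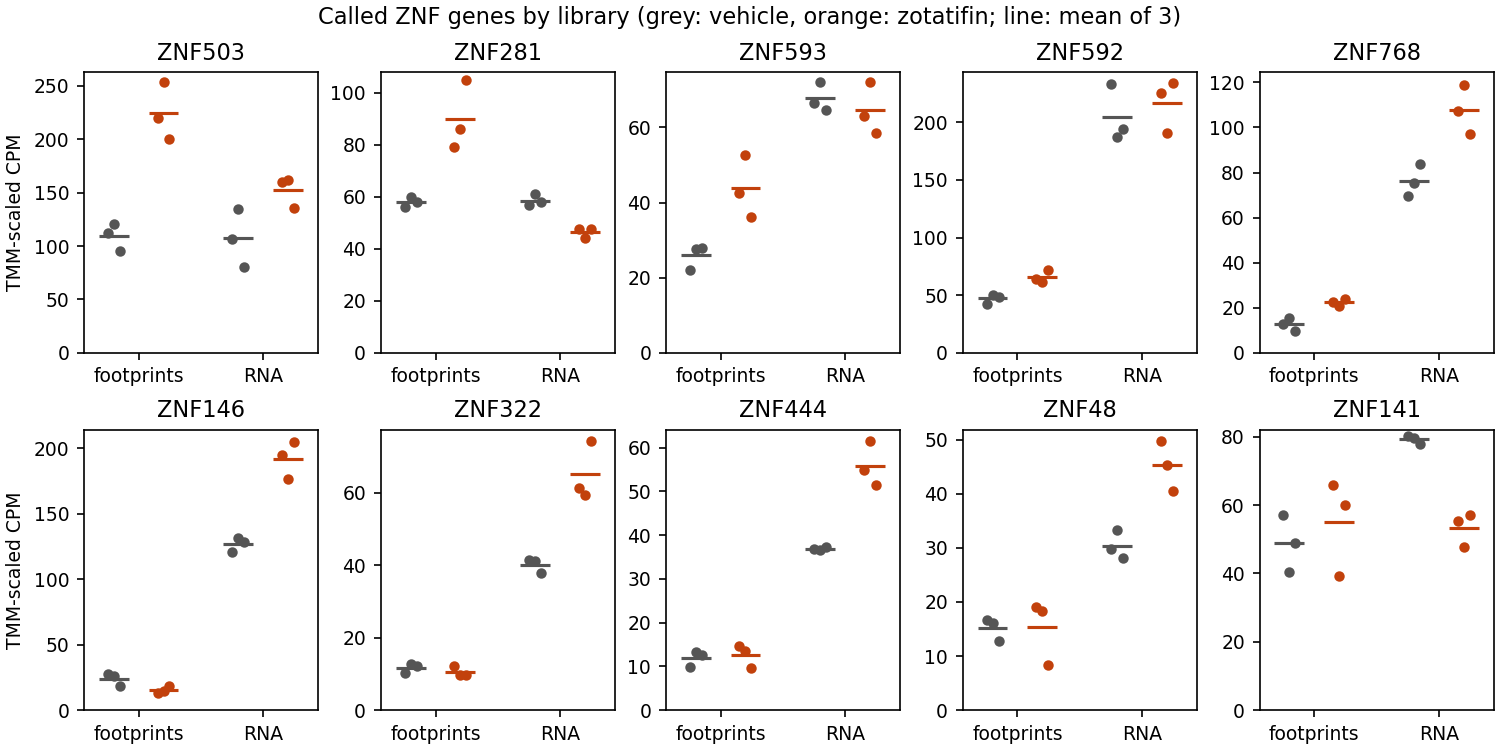
TMM-scaled CPM (y axes from 0) of the 10 ZNF genes called in footprints, RNA or TE, in every library; grey points are vehicle, orange points zotatifin and lines the mean of 3. Footprints of ZNF503 go from 95.3 to 120 CPM with vehicle to 201 to 254 CPM with zotatifin, and ZNF146 has more RNA and fewer footprints.

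RNA, which the rule did not use, changed in few members. Of 279 tested, 5 rose and 1 fell (edgeR), and 1.72% of all 13118 genes tested were called (0.808% rose and 0.907% fell). The 6 members are 2.15% of those tested, near that background. At an unadjusted p below 0.05, edgeR had 34 members higher and 17 lower, where 8.56% and 9.74% of all genes tested were. DESeq2 called 7, the 6 genes of edgeR and ZNF740. The treatments did not overlap in 43 members with higher and 24 with lower RNA, where 12.3% and 10.9% of all tested genes did not. The count of calls rested on single libraries: it was 0 without vehicle 1, vehicle 3 or zotatifin 3, 1 without zotatifin 1, 6 without zotatifin 2 and 9 without vehicle 2.

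ZNF322 and ZNF146 had the smallest adjusted p-values in RNA. ZNF322 at chr6:26634383-26659746 stood at 41.4, 41.3 and 37.8 CPM with vehicle and 61.4, 59.5 and 74.2 CPM with zotatifin, a rise of 0.70 ± 0.14 (adjusted p = 0.0143, edgeR). Its footprints showed no such rise, at 10.3, 12.8 and 12.1 against 12.1, 9.81 and 9.70 CPM. ZNF146 at chr19:36214723-36238768, whose protein consists of little but its fingers, stood at 121, 131 and 128 CPM with vehicle and 195, 177 and 205 CPM with zotatifin (0.60 ± 0.12, adjusted p = 0.0143, edgeR). ZNF444, which has a SCAN dimerisation domain, stood at 36.7, 36.7 and 37.3 against 54.8, 61.5 and 51.3 CPM (0.60 ± 0.14, adjusted p = 0.0302, edgeR). In all 3 genes the RNA values of the treatments lay clearly apart.

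ZNF48 and ZNF768, which lie in 1 block on chromosome 16, were the other 2 rises. By start, the member ZNF771 stands between them, and its RNA was not called. ZNF48 RNA stood at 29.7, 33.2 and 28.1 CPM with vehicle and 49.8, 45.3 and 40.6 CPM with zotatifin (0.58 ± 0.15, adjusted p = 0.0483, edgeR). ZNF768 RNA stood at 69.8, 75.5 and 83.7 against 107, 119 and 97.0 CPM (0.50 ± 0.13, adjusted p = 0.0482, edgeR). The call of ZNF768 was lost without any 1 library, and those of the 4 other rises without some of them. ZNF141, a KRAB gene at chr4:337814-384868, fell from 80.1, 79.7 and 77.9 CPM to 55.4, 47.8 and 57.0 CPM (-0.57 ± 0.13, adjusted p = 0.0276, edgeR). Its footprints overlapped between treatments, at 57.0, 40.5 and 48.9 against 65.9, 39.2 and 60.2 CPM. The next lower members in RNA, ZNF292 (-0.52 ± 0.15, adjusted p = 0.078) and ZNF665 (-0.58 ± 0.18, adjusted p = 0.0927), did not pass in edgeR.

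RNA and footprint changes were only loosely related across members. Of the 265 members tested in both, 101 had both changes above 0, 93 had footprints above and RNA below 0, 30 the reverse and 41 both below. The footprint change lay above the RNA change in 181 of the 265. Over these genes the 2 changes had a Pearson correlation of 0.10 and a Spearman correlation of 0.08, given as a description, since genes of the same libraries are not independent replicates. Members had a median of only 24.7 footprints per vehicle library, and the part of counting noise in these low values was not tested. The correlation over all genes was not computed, so a loose relation is not shown to be particular to the members.

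**Figure D3:**
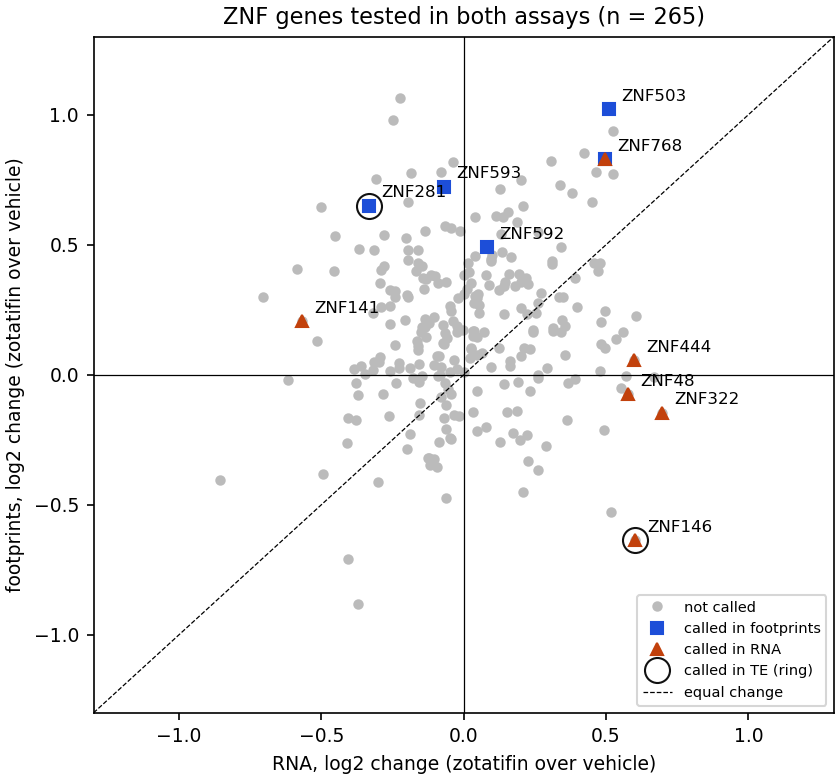
Log2 change of footprints (y axis) against that of RNA (x axis), zotatifin over vehicle, for the 265 ZNF genes tested in both assays; blue squares are called in footprints, orange triangles in RNA, rings in TE, and the dashed line marks equal change. ZNF503 (0.51, 1.02) and ZNF768 lie high in both, ZNF281 (-0.33, 0.65) and ZNF146 (0.60, -0.64) far from the dashed line on either side.

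TE changed in 2 of 265 members, ZNF281 up and ZNF146 down, where 2.04% of 9454 genes were called (0.444% rose and 1.60% fell). At an unadjusted p below 0.05, edgeR had 26 members higher and 8 lower, where 5.68% and 9.38% of all genes were; since TE shares the vehicle footprints with the rule, nothing is read from these counts. DESeq2 called 4, ZNF281 and ZNF146 among them, and gave no adjusted p for 121. The TE level of a tumour is the log2 ratio of its footprint to its RNA CPM, each with 0.5 added. ZNF281 stood at -0.02, -0.02 and -0.00 in the vehicle tumours and at 0.72, 0.95 and 1.13 in the zotatifin tumours. All 3 zotatifin tumours had more footprints per RNA, with a change of 0.98 ± 0.19 (adjusted p = 0.00422, edgeR), and the call held without any 1 tumour (up to 0.0485). ZNF146 stood at -2.11, -2.31 and -2.76 with vehicle and at -3.85, -3.54 and -3.46 with zotatifin. It had fewer footprints per RNA in every zotatifin tumour (-1.24 ± 0.25, adjusted p = 0.00643, edgeR), and the call was lost without vehicle tumour 1 or zotatifin tumour 1 (up to 0.0787).

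With the tumour as a block, which pairs the footprint and RNA libraries of 1 tumour, edgeR called 12 members in TE, 9 up and 3 down, where 9.14% of all genes were called (3.14% up and 6.00% down). ZNF281 (0.97 ± 0.17, adjusted p = 6.38e-05) and ZNF146 (-1.26 ± 0.25, adjusted p = 0.000253) were among them. ZNF503 rose by 0.51 ± 0.13 (adjusted p = 0.00737, against 0.21 without the block) and ZNF593 by 0.81 ± 0.21 (0.00698, against 0.0685). ZNF141, whose RNA fell while its footprints did not, rose in TE by 0.76 ± 0.19 (0.00493, against 0.0633). ZNF292 rose by 0.61 ± 0.21 (0.0496). The other 4 rises were ZNF548, ZNF324B, ZNF780A and ZNF8, by 0.99 to 1.25, all with 10.0 to 16.3 vehicle footprints per library. These 4 lay near the minimum of 10 that chose the members, in the group where they were low, and rest on few counts. ZNF462 (-1.07 ± 0.31, adjusted p = 0.019) and ZNF148 (-0.58 ± 0.19, adjusted p = 0.0351) fell beside ZNF146.

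The authors' deposited table of treatment estimates, taken as a change of TE on the natural log scale, lists 279 members. Of these, 22 are higher and 6 lower at an FDR below 0.05 (10.0%). Of all 11446 genes listed, 926 are higher and 1166 lower (18.3%). The estimate shares the vehicle footprints with the rule, so nothing is read from the member counts. In the authors' deposited table ZNF146 is lower (FDR = 4.03e-07), as are ZNF462 (0.00173) and ZNF148 (0.00333). ZNF207 (5.71e-05), ZNF141 (0.000609) and ZNF780A (0.000988) are higher. ZNF503 and ZNF593 have FDR values of 0.0174 and 0.00602, and ZNF281 has 0.293. The authors' deposited table of RNA changes calls 7 members.

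Footprints per RNA in vehicle tumours varied widely among members. The median TE level was -0.72 over 265 members, with quartiles of -1.54 and -0.03, against -0.19 over all 9454 genes. Among genes with 10 to 50 vehicle footprints the medians lay closer together, at -0.92 for 210 members and -0.84 for all 3860. Members on chromosome 19 had a median of -0.61 and those elsewhere -0.98. Whether counts cover the coding region or the whole transcript is not given in the sources used here, so this ratio is not a value per coding length.

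**Figure D4:**
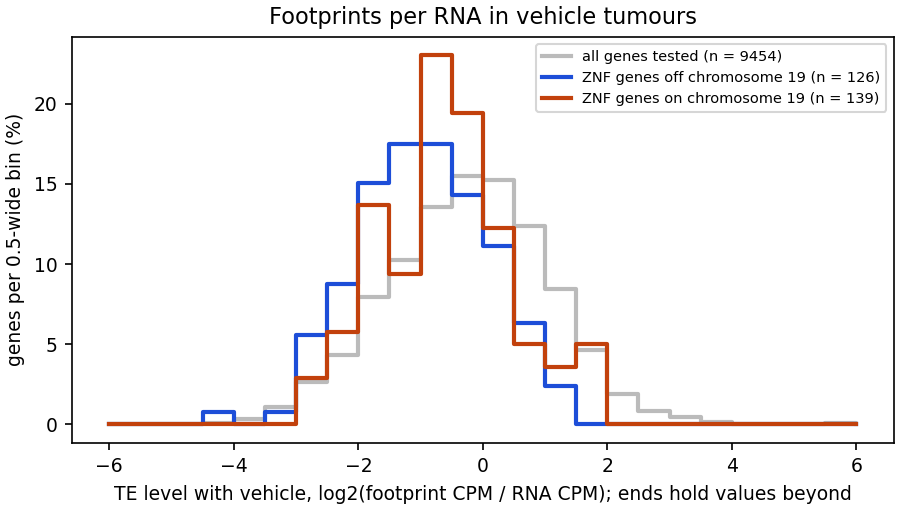
Distribution of the TE level in vehicle tumours (x axis, log2 footprint over RNA CPM; y axis, % of genes per bin) for 139 ZNF genes on chromosome 19, 126 elsewhere and all 9454 genes tested. ZNF genes sit to the left of all genes, with medians of -0.61 and -0.98 against -0.19.

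Among the 265 members tested in TE, the lowest level belonged to ZNF664, with -4.46, -4.22 and -4.02 in the 3 vehicle tumours. It had 432 to 604 CPM of RNA, the most counts of any member, and 22.8 to 27.0 CPM of footprints. ZNF37A (-3.10 ± 0.14), ZNF263 (-2.78 ± 0.10), ZNF426 (-2.75 ± 0.20), ZNF8 (-2.64 ± 0.37) and ZNF76 (-2.64 ± 0.19; SD, n = 3 each) followed. ZNF37A lay below ZNF263 by more than their SDs together, while ZNF263, ZNF426, ZNF8 and ZNF76 did not lie apart beyond their spread. At the other end stood ZNF493 (1.95 ± 0.20), ZNF626 (1.88 ± 0.52), ZNF729 (1.80 ± 0.36), ZNF878 (1.72 ± 0.49), ZNF738 (1.63 ± 0.64) and ZNF726 (1.58 ± 0.29), whose order is within their spread. All 6 are on chromosome 19, and 5 of them (all but ZNF878) lie in the cluster of the shared leader shown above, which ZNF493, ZNF626 and ZNF726 carry. The letters of that leader were read from ZNF493 itself, so nothing is read from their presence among these genes.

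In 4 of the 283 members there were footprints but almost no RNA, and they failed the RNA filter. ZNF732 had 39.8, 35 and 33 CPM of footprints in vehicle tumours and 42.5, 19.6 and 37.5 CPM after zotatifin, against at most 0.695 CPM of RNA in any library. ZNF415, ZNF90 and ZNF679 had vehicle means of 21.7, 17 and 11 footprint counts beside 3.67, 2.33 and 4.67 RNA counts. These genes belong to families of close copies, and how reads that match several copies were counted is not given in the sources used here. The same limit holds for other members in the chromosome 19 clusters and for ZNF816 and the readthrough ZNF816-ZNF321P, which overlap in the genome.

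Many members stand next to each other in the genome. Blocks were formed by chaining members whose starts lie within 1000000 bases, and 10 blocks with at least 6 members held 157 of the 283. The largest, at chr19:19668153-24129968, held 35 members, among them ZNF91 and ZNF93, KRAB genes known to bind SVA and LINE-1 elements. Its median RNA change was -0.14, with 9 of 35 above 0, its median footprint change 0.06, and its median TE level with vehicle -0.00. ZNF91 had RNA of 151, 149 and 137 CPM with vehicle and 112, 94.7 and 129 CPM with zotatifin (-0.38 ± 0.13, adjusted p = 0.124, edgeR). Its footprints were alike, at 54.1, 56.6 and 63.5 against 66.8, 38.0 and 60.2 CPM.

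The block at the end of chromosome 19, chr19:57191500-58475436, had a low TE level with vehicle and higher footprints with zotatifin. Its 24 members had a median TE level of -1.49, a median RNA change of -0.07 and a median footprint change of 0.29, with 20 of 24 above 0. Both the TE level and the footprint change use the vehicle footprints, with a median of 8.94 CPM in this block. A low vehicle value lowers the level and raises the change, so nothing is read from their meeting. ZNF548, ZNF324B and ZNF8, of the TE calls with the tumour as a block, lie in this stretch of chromosome 19. ZNF548 had 6.88, 5.00 and 5.72 CPM of footprints with vehicle and 14.8, 8.58 and 12.9 CPM with zotatifin (1.07 ± 0.34, adjusted p = 0.0524, edgeR). The zotatifin values all lay higher, on 10.7 footprint counts per vehicle library.

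Of the 10 blocks, 2 had higher medians in both assays. The 8 members at chr16:30378312-31917357, among them ZNF48 and ZNF768, had medians of 0.31 in RNA and 0.32 in footprints. The 11 at chr19:36214723-37779586 had 0.29 and 0.29, and ZNF146, which lies there, was the exception in footprints. The 6 members at chr7:149126408-149867479 had the highest footprint median of the blocks, 0.39, with RNA at -0.00. The 9 at chr7:64045434-65401136 had 0.19 and -0.09. The other chromosome 19 blocks had footprint medians of 0.19 (30 members), 0.10 (18), -0.00 (10) and -0.06 (6). Of the 141 members on chromosome 19 tested in footprints, edgeR called 0, where 3.22% of all genes rose, and DESeq2 called 0 there. At an unadjusted p below 0.05, edgeR had 12 of the 141 higher and 1 lower (10.3% and 11.8% of all genes), and since the rule used this contrast, nothing is read from these counts. The median footprint change was 0.16 on chromosome 19 and 0.13 elsewhere. Differences between blocks were not tested, since neighbours are related genes of the same tumours.

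**Figure D5:**
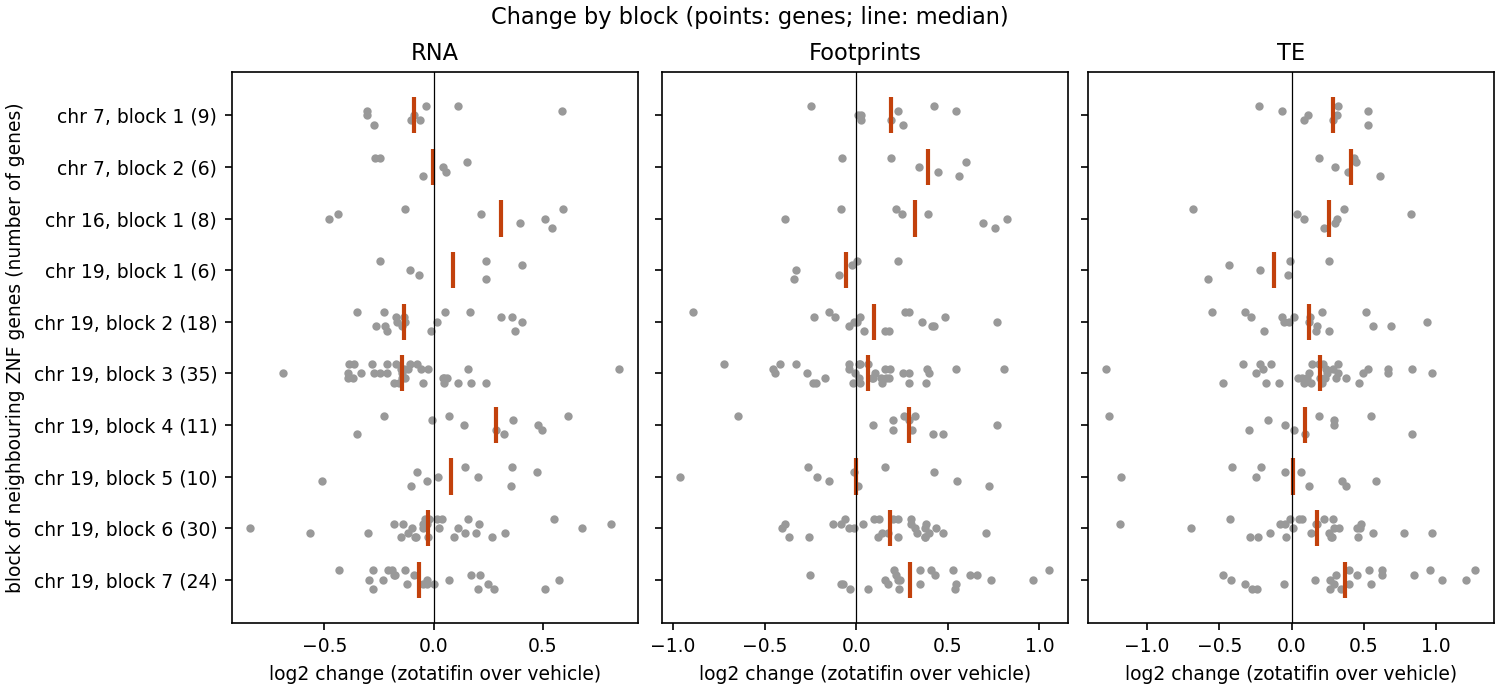
Log2 change (x axes, zotatifin over vehicle) of RNA, footprints and TE for the 157 ZNF genes in 10 blocks of neighbouring genes, ordered by chromosome and position; points are genes and the orange line the median of the block. The largest block (35 genes) has its RNA median at -0.14, and the last block of chromosome 19 (24 genes) its footprint median at 0.29.

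The role lists held 25 entries tested in footprints, with ZNF335 counted under both promoter-binding factors and nuclear receptor cofactors. Of these genes 3 were called, ZNF593, ZNF592 and ZNF281, where 7.14% of all genes were. All 3 lists they come from are small, and the rule used this contrast for the members. Of the 2 tied to the ribosome, ZNF593 rose in footprints (above), while ZNF622, which takes part in maturation of the large subunit, stood at 66.3, 63.8 and 86.4 against 96.3, 66.2 and 64.0 CPM (0.07 ± 0.16, adjusted p = 0.838, edgeR). The RNA-binding members ZNF207, ZNF326, ZNF638, ZNF346, ZNF106 and ZNF385A had RNA changes from -0.49 to -0.02, all below 0, and the 5 tested in footprints changes from 0.02 to 0.19. ZNF207, a spindle protein that also acts in splicing, had the most footprints of any member: 201, 205 and 210 CPM with vehicle and 229, 243 and 199 CPM with zotatifin. Its TE change of 0.36 ± 0.16 did not pass (adjusted p = 0.254, edgeR), while the authors' estimate for it is higher (above). ZNF326, of a complex that couples splicing to elongation, had RNA of 67.3, 59.3 and 71.5 against 51.5, 45.6 and 57.0 CPM (-0.36 ± 0.13, adjusted p = 0.157, edgeR). ZNF451, a SUMO ligase, changed by 0.07 ± 0.18 in footprints.

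Among chromatin scaffolds, 8 of 12 listed were tested in footprints, with ZNF592 as the call. Its partner ZNF687 went the same way without passing, at 28.0, 29.4 and 33.0 against 39.0, 38.0 and 40.7 CPM (0.39 ± 0.18, adjusted p = 0.188, edgeR). ZNF462, a chromatin regulator of stem cells, went the other way, at 14.7, 16.1 and 13.3 against 11.3, 8.58 and 10.3 CPM (-0.53 ± 0.29, adjusted p = 0.292, edgeR), while its RNA stood at 38.1, 30.9 and 38.8 against 61.3, 41.3 and 51.6 CPM. ZNF217, of the CoREST complex, ZNF644 and ZNF518B, which work with the H3K9 methyltransferase G9a, and ZNF518A changed by -0.23 to 0.30 in footprints. ZNF274, the KRAB protein that brings SETDB1 to the ends of other ZNF genes, changed by -0.07 ± 0.28 in footprints and -0.05 ± 0.17 in RNA.

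Among promoter-binding factors, ZNF281 was the footprint call of 7 tested. ZNF148, a related factor for GC-rich promoters, had footprints of 51.1, 60.5 and 52.7 against 39.9, 44.1 and 50.5 CPM, all lower with zotatifin (-0.27 ± 0.16, adjusted p = 0.341, edgeR). The pair thus stood on opposite sides, and their TE calls with the tumour as a block had opposite signs. ZNF143, the binder of the motif shown above, changed by -0.29 ± 0.21 in footprints and its paralog ZNF76 by 0.48 ± 0.28. ZNF384, ZNF24 and ZNF335 changed by 0.17 ± 0.19, 0.03 ± 0.12 and 0.47 ± 0.26. ZNF174, of the same list, had 6.00 footprints per vehicle library and is no member, and its RNA rose from 10.5, 9.66 and 11.5 CPM to 26.0, 29.9 and 21.8 CPM (1.29 ± 0.19, adjusted p = 0.00207, edgeR). ZNF318, a cofactor of the androgen receptor, had footprints of 20.6, 21.6 and 27.3 against 36.4, 22.1 and 34.9 CPM, which overlap (0.48 ± 0.22, adjusted p = 0.182, edgeR).

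The corepressor machinery that KRAB proteins recruit had 1 call, in footprints. All 19 genes were tested in the 3 comparisons, with medians of 0.03 in RNA, 0.01 in footprints and -0.10 in TE. TRIM28 footprints stood at 544, 560 and 582 CPM with vehicle and 601, 620 and 608 CPM with zotatifin (0.12 ± 0.10, adjusted p = 0.519, edgeR). SETDB1 stood at 77.6, 78.8 and 65.4 against 90.2, 76.0 and 74.4 CPM. CBX3, a heterochromatin protein, fell from 1226, 1222 and 1203 CPM to 1009, 863 and 998 CPM (-0.34 ± 0.10, adjusted p = 0.0337, edgeR), a call lost without any 1 library. That is 1 of 19, where 7.14% of all genes were called, and at an unadjusted p below 0.05 edgeR had 1 higher and 4 lower (10.3% and 11.8% of all genes). In RNA edgeR called 0 of the 19 (1.72% of all genes), with 0 higher and 2 lower at an unadjusted p below 0.05, and DESeq2 called 1. In TE edgeR called 0 (2.04% of all genes), with 1 higher and 3 lower at an unadjusted p below 0.05, and DESeq2 called 1. With the tumour as a block, TE of DNMT1 rose (0.47 ± 0.12, adjusted p = 0.00711) and that of CBX3 (-0.53 ± 0.12, adjusted p = 0.00167) and MORC2 (-0.91 ± 0.24, adjusted p = 0.00987) fell.

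Other zinc finger families, taken by the start of their names and the same minimum of 10 vehicle footprints, gave 67 genes, of which 66 were tested in footprints and 1 rose, where 3.22% of all genes tested did. That gene, ZFP36L2, is named after its value was seen and encodes an RNA-binding protein with fingers of another type (0.66 ± 0.19, adjusted p = 0.0306, edgeR). In TE 1 of 66 rose (0.444% of all genes), ZFP36L1 of the same type (0.79 ± 0.20, adjusted p = 0.0332, edgeR). Median footprint changes without a filter were 0.06 for 30 ZBTB, 0.22 for 12 ZFP, 0.15 for 10 KLF, 0.08 for 6 ZSCAN, 0.30 for 5 ZKSCAN and 0.18 for 4 PRDM genes, beside 0.16 for the ZNF members. Whether the ZNF genes differ from these families was not tested. Their median TE levels with vehicle lay lower than the -0.72 of the ZNF members, from -1.01 in ZSCAN to -1.95 in ZKSCAN.

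At the edge of the rule, ZNF233, ZNF324B, ZNF350 and ZNF165 were just inside, with 10.0 to 10.3 footprints per vehicle library, and ZNF408, ZNF559, ZNF772 and ZNF821 just outside, with 9.67 each. The 14 members that failed the footprint filter had too few counts in too many libraries, and with the 4 that failed in RNA they leave 18 members without a TE test.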

How the data were processed

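Ribosome footprints (24 to 34 nt, from monosome fractions) and RNA of the same lysates were sequenced from 6 tumours. The deposited tables hold raw counts per transcript, per the file headers. In the authors' deposited comparison tables the RNA fold change and its error are log2 values, mean expression is a signal (normalised counts), the test statistic is a score and p-values come plain and adjusted. The deposited treatment estimate is read as natural log, since a regression over 3243 genes gave it a weight of 0.672 per log2 unit of footprints and -0.678 per log2 unit of RNA. Per the submitters' processing notes, cutadapt 2.3, UMI-tools, Bowtie2 2.3.5 and DESeq2 were used with the hg38 build. Strand setting and counted region: not given in the sources used here. Groups, and so every direction of change, follow the titles and column names. Per the labels, the treatment field contradicts the titles of 6 of the 12 samples: it reads zotatifin for every footprint sample and none for every RNA sample, so it separates the assays and not the treatments.

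Counts were tested in R 4.3.3 with edgeR 4.0.16 (filterByExpr with minimum count 10 and minimum total 15, TMM, robust quasi-likelihood F test, Benjamini-Hochberg adjusted p below 0.05 over all genes), zotatifin against vehicle. TE was the interaction of assay and treatment over 12 libraries. The scripts were tested on simulated data. Alternatives were RLE scaling, DESeq2 1.42.0, no filter, other membership rules, a replicate block and leaving out each library. Replicate numbers were checked on 4889 genes with a mean of 50 or more counts: within a treatment, footprint and RNA deviations correlated at 0.217 to 0.440 where numbers matched and at -0.381 to 0.119 where they did not, so a number marks 1 tumour there. Across treatments the same numbers correlated at -0.0947 to 0.181, so they pair nothing. The titles call the replicates biological, and p-values of RNA and footprints measure the spread between these 3 tumours per group. The main TE model took its 12 libraries as independent, so its p-values leave out the pairing within a tumour that the block uses. Footprint depth limits most members, with a median of 24.7 counts.

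The members and lists were chosen with earlier results of these data known. Named were all members called, filled up to 3 per direction by the smallest p, the 6 highest and 6 lowest TE levels, 4 genes on each side of the minimum, and the role lists; of other lists, called genes. Ranks by coding length or finger number were not used here, for want of a protein table. Positions and sequences are from RefSeq, where 282 members matched by symbol and 1 by synonym.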

Additional observations from a re-analysis of the deposited data

How the results depend on the processing

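Count of members called, by setting. In RNA, 6 were called as reported, 16 without a low-count filter, 14 with a replicate block, and 0 to 9 when 1 library was left out. In footprints, 5 were called as reported, 2 with DESeq2, which gave no adjusted p for 240 members, and 2 to 5 when 1 library was left out (2 without vehicle 1 or zotatifin 3, 3 without zotatifin 1). ZNF593 and ZNF592 had an adjusted p for footprints in DESeq2 and did not pass. In TE, 2 were called as reported, 12 with the tumour as a replicate block, 4 with DESeq2, and 1 to 3 when 1 tumour was left out (1 without vehicle 1 or zotatifin 1). RLE scaling and both other membership rules kept each count within 1.5 times. Of the 19 corepressor genes, RNA calls went from 0 to 1 without a filter, with the replicate block and with DESeq2; footprint calls went from 1 to 4 without a filter, to 2 with the block, and to 0 to 1 when 1 library was left out (the fall of CBX3 was lost each time, and the 1 call without vehicle 3 or zotatifin 2 was a rise of another gene); TE calls went from 0 to 3 with the block and to 1 with DESeq2. Apart from fewer genes with an adjusted p in DESeq2 and fewer samples when 1 was left out, the cause was not tested. The replicate block across treatments rests on numbers that pair nothing there. The median change of the tested members ran from -0.08 (without zotatifin 3) to 0.07 (without zotatifin 2) in RNA, from 0.15 to 0.20 in footprints and from 0.13 to 0.21 in TE when 1 library or tumour was left out. For 22 single-gene results, 216 alternative values were computed: 155 stayed on the same side of the threshold, 51 lost the call, 10 gained it and 0 changed sign. The 22 include members named by their smallest p that were not called as reported. These had no call to lose, so all 51 losses fell on the called results and the 155 overstate how stable the calls were. The footprint call of ZNF592 was lost in 9 alternatives and kept in 1, while that of ZNF503 was kept in all 10. Depth limits footprints most: 56 of 283 members had 50 or more counts per vehicle library.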
